A study of Mus musculus with 18 samples.

Results

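The genes described here encode the proteins of the cytosolic ribosome. They are the rows of the mouse expression table whose symbol is *Rpl* or *Rps* followed by a number, with a short paralogue suffix allowed, and whose mean over the 18 libraries was at least 10 FPKM (fragments counted per length of transcript and per size of the library). Of the 24346 genes, 80 matched the symbol and 76 also passed the mean, 45 of the large and 31 of the small ribosomal subunit, and all 76 entered the tests. The rule itself used no difference between groups, but it was set with earlier results of these data known. *Rpl3l* passed the mean only through the groups in which it is high. Just inside the limit were *Rpl3l* with a mean of 22.9 FPKM and *Rpl7l1* with 23.8 FPKM. Just outside were *Rpl26* with 9.23 FPKM and *Rps27* with 7.36 FPKM, followed by *Rpl39l* and *Rpl10l* with 0.25 and 0.19 FPKM.

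Each library was made from the initial segment and caput (IS-caput), the part of the epididymis nearest to the testis, and each group had 3 libraries. Wild-type males were examined at 12 weeks of age after sham operation (sham), after removal of both testes (bilateral orchidectomy, bilateral OD) or after removal of 1 testis (unilateral OD), in which case the side that lost its testis (ipsilateral) and the side that kept it (contralateral) were sequenced apart. Untreated wild-type (WT) and *Nell2*-/- males, which lack a secreted protein that the testis releases into the duct, were 14 weeks old. By the study's methods the OD animals were B6D1F1, the strain of the *Nell2* cohort is not given in the sources used here, and ipsilateral and contralateral tissue came from the same 3 males, but the labels do not say which libraries share a male, so the sides were fitted as separate samples. *Nell2* is missing in every tissue of the mutant, and whole tissue was sequenced, so that fewer cells of a type and less RNA per cell cannot be told apart.

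A ribosome is built from ribosomal RNA and about equal numbers of copies of each ribosomal protein, assembled into a small subunit that reads the mRNA and a large subunit that joins amino acids. In mammals the mRNAs of these proteins are short and very abundant, and most begin with a run of pyrimidines at the very 5′ end, the 5′ terminal oligopyrimidine (TOP) sequence, through which the mTOR pathway and the RNA-binding protein LARP1 control their translation and stability. The epididymis is a secretory duct whose principal cells release large amounts of protein into the lumen around the maturing sperm, and androgens in the blood and factors in the fluid from the testis act on these cells.

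The TOP sequence is the feature that ribosomal protein mRNAs are known to share. The 24 bases at the 5′ end of the annotated transcript are given for 4 members that have such a run and for 3 paralogues among the members that have none. The 4 rose, but so did *Rpl22l1* of the 3 in bilateral OD. Whether a run goes with a rise was not tested. Capitals mark a C followed by at least 5 further C or T on the gene's strand, beginning within 10 bases of the start. The transcript starts are those of GENCODE M21 on GRCm38 (mm10).
Rpl31 (chr1:39367842-39367865, + strand): cctcgCCTCCCCgtgacccggaag
Rpl5 (chr5:107900502-107900525, + strand): cagccaCTCTTTCTCacgtcgctt
Rps19 (chr7:24884714-24884737, + strand): gggCTTTCTggccccaagagctcg
Rpl22 (chr4:152325867-152325890, + strand): ctgCCTCCTCTgccgccatggcgc
Rpl3l (chr17:24727820-24727843, + strand): agctctgtcatttgacctctggtg
Rps27l (chr9:66946091-66946114, + strand): tatcccggaagttgctgaggggcg
Rpl22l1 (chr3:28805436-28805459, + strand): gttgcgtatttcgcacgctctgcg

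With the RefSeq promoter windows (GRCm38.p6), 31 of the 56 members that had a window held such a run within 10 bases of the start on the gene's strand, 55.4%, against 22.5% of 18094 genes. With the GENCODE starts it was 23 of 75 members, 30.7%, against 13.3% of 20376 genes. Annotated starts can lie some bases away from the start used in this tissue, and *Rpl41* and *Rpl3*, which are ordinary ribosomal protein genes, also had no run at their annotated start. *Rpl3* rose in bilateral OD, ipsilaterally and in *Nell2*-/-, as given below. The letters are a description and were not used in any test.

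The totals of FPKM over all genes ran from 777753 to 825866 in sham and from 528664 to 564806 in bilateral OD, and from 650658 to 729074 in the other 4 groups. The 50 most abundant genes outside the set took 36.9% to 37.8% of all FPKM in sham and 18.6% to 20.2% in bilateral OD. The number of reads per library is not given by FPKM, and judged from the steps between low values, 1 read was worth 0.600 to 1.01 times its worth in the first sham library, the lowest worth being in bilateral OD replicate 2. Marker genes of principal cells, 7 in all, fitted the labelled tissue, with a summed level of 75286 to 79991 FPKM in sham, 57839 to 60301 FPKM contralaterally and 63272 to 65909 FPKM in WT. They summed to 815 to 1075 FPKM in bilateral OD, 25062 to 31562 FPKM ipsilaterally and 39062 to 41605 FPKM in *Nell2*-/-. Most of the latter sums was *Gpx5*, which was not called ipsilaterally and higher in *Nell2*-/- (0.26), and the other 6 genes together were at 24170 FPKM or more in every control library and at 103 FPKM or less in every other.

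Ribosomal protein mRNA took a large share of the measured transcriptome, and its level was higher in bilateral OD than in sham, ipsilaterally than contralaterally and in *Nell2*-/- than in WT. The summed level of the 76 genes was 84786, 74222 and 89093 FPKM in the 3 sham libraries and 115220, 111600 and 109740 FPKM in the bilateral OD libraries. It was 79259, 76872 and 76924 FPKM contralaterally and 93622, 94761 and 90587 FPKM ipsilaterally. It was 72034, 65954 and 72275 FPKM in WT and 99763, 85309 and 92307 FPKM in *Nell2*-/-. In each of these 3 pairs the lowest library of the second group lay above the highest of the first, whereas contralateral libraries lay within the range of sham. As a share of all FPKM the genes took 10.2% ± 0.627 (SD, n = 3) in sham and 20.7% ± 0.234 in bilateral OD, 10.7% ± 0.170 contralaterally and 13.7% ± 0.0723 ipsilaterally, and 9.83% ± 0.348 in WT and 13.6% ± 0.559 in *Nell2*-/-. Beside the larger share in bilateral OD stood the lower total of all FPKM there.

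**Figure D1:**
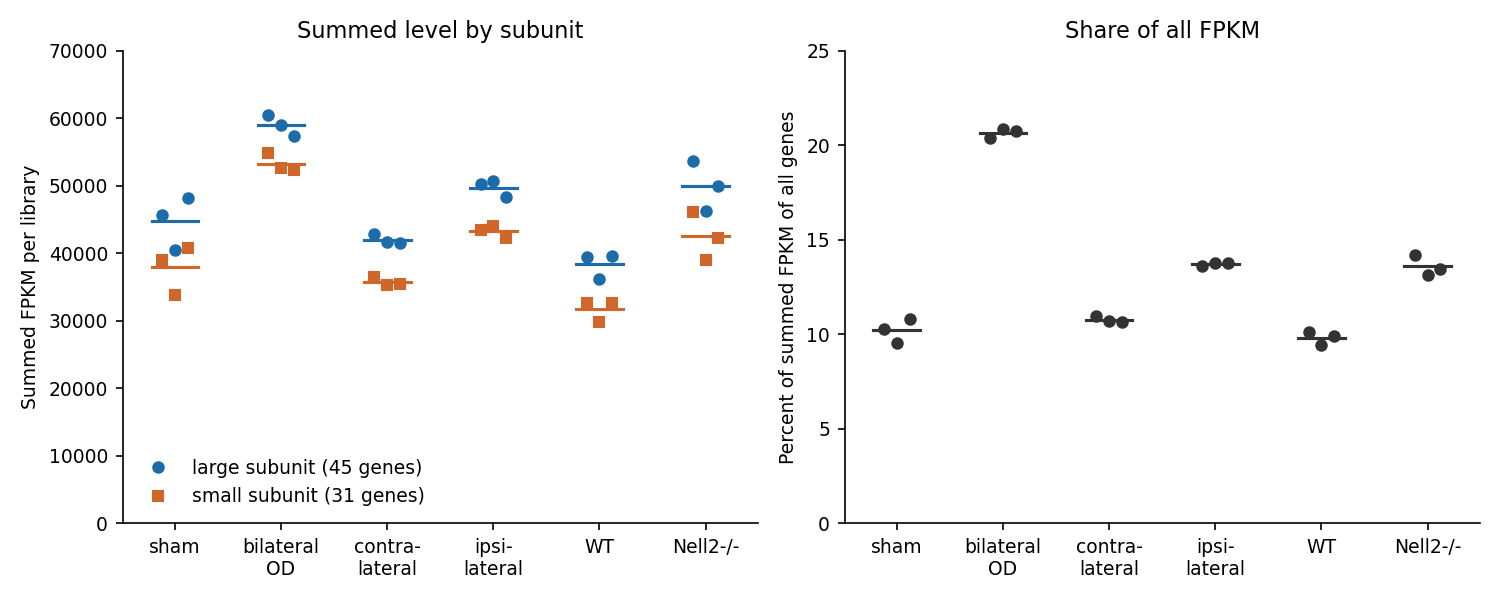
Summed FPKM of the 45 large and 31 small subunit genes in each library (left) and the percent of all FPKM taken by the 76 genes (right), by group, with points for the 3 libraries and a line at their mean. The bilateral OD libraries lie at 20.4% to 20.8% of all FPKM, the ipsilateral and *Nell2*-/- libraries at 13.1% to 14.2%, and the 3 control groups at 9.44% to 10.9%.

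Most single genes followed. In bilateral OD against sham, 63 of the 76 were higher and 3 lower at an adjusted p under 0.05 (limma, adjusted over 17302 genes), where 30.4% of all genes tested were called higher and 31.4% lower. In ipsilateral against contralateral, 57 were higher and 1 lower, against 16% and 18.6% of all genes. In *Nell2*-/- against WT, 68 were higher and 2 lower, against 17.8% and 18.6% of all genes. The 3 libraries of the second group all lay above the 3 of the first for 62, 64 and 70 members, where this held for 31.4%, 22.9% and 24.8% of all genes. The members' median log2 fold change, on log2(FPKM + 0.1), was 0.49 in bilateral OD, 0.27 ipsilaterally and 0.39 in *Nell2*-/-, while the median over all genes tested was 0.02 in each. No library is shared between these 3 comparisons, and 53 members were called higher in all 3, where 6.27% of all genes were. Only *Rpl3l* was lower in all 3, where 10.5% of all genes were, and *Rpl34*, *Rpl7l1*, *Rps27l* and *Rps4l* were the other members called higher in none of them.

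**Figure D2:**
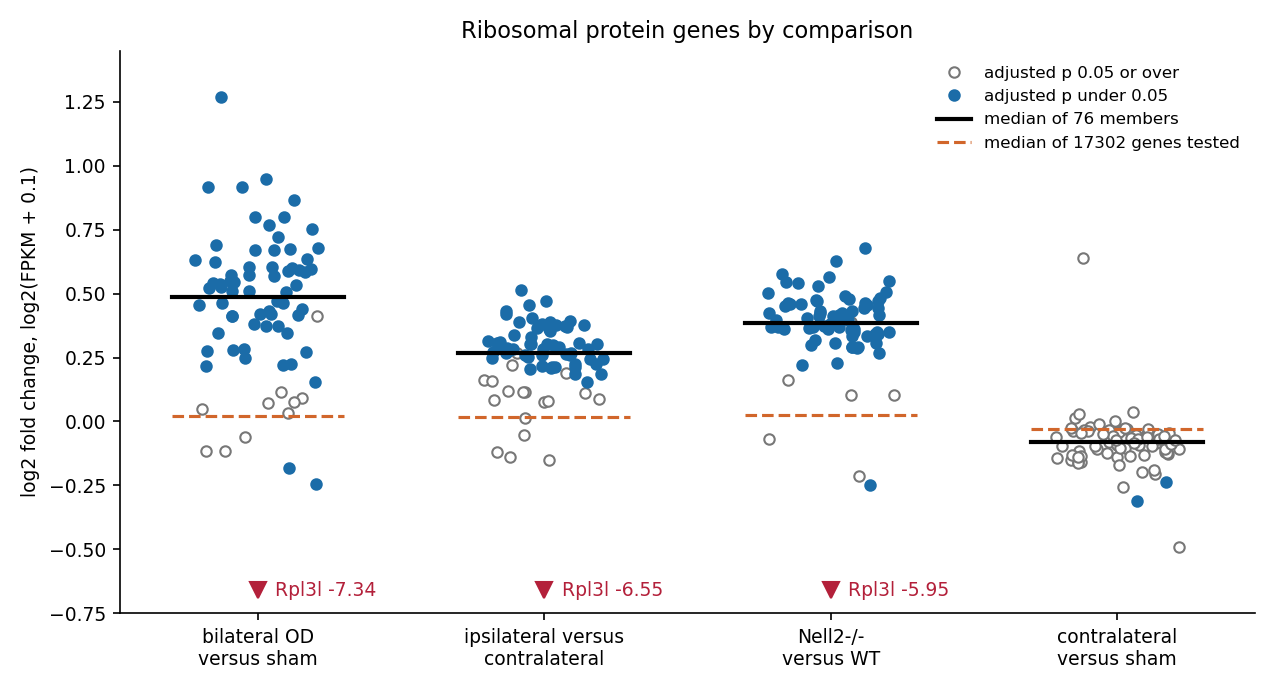
log2 fold change of each of the 76 genes (points, filled where the adjusted p was under 0.05) in 4 comparisons, with the median of the 76 (solid line) and of the 17302 genes tested (dashed line). The medians of the set lie at 0.49, 0.27 and 0.39 in the first 3 comparisons and at -0.08 in contralateral against sham, and *Rpl3l*, drawn as a triangle with its value, lies off the scale in the first 3.

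Without *Rpl3l* the log2 fold changes ran from -0.25 to 1.27 in bilateral OD, from -0.15 to 0.52 ipsilaterally and from -0.25 to 0.68 in *Nell2*-/-. Their standard deviation over these 75 genes was 0.13 ipsilaterally and 0.15 in *Nell2*-/-, and 0.28 in bilateral OD, where the genes spread most. Small subunit genes had a median of 0.53 and large subunit genes of 0.44 in bilateral OD, with 27 of 31 and 36 of 45 called higher. The ratio of the summed large to the summed small subunit level was 1.17 to 1.20 in sham and 1.09 to 1.12 in bilateral OD, 1.17 to 1.18 contralaterally and 1.14 to 1.16 ipsilaterally, and 1.21 to 1.22 in WT and 1.16 to 1.19 in *Nell2*-/-. The ranges did not overlap in any of these 3 pairs, each time with less large subunit mRNA per small subunit mRNA in the second group.

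In bilateral OD the member that rose most was *Rpl31*, whose protein sits at the exit of the tunnel through which the new chain leaves the large subunit. Its level was 308, 253 and 323 FPKM in sham and 703, 737 and 683 FPKM in bilateral OD, with no overlap and a ratio of the means of 2.40. The log2 fold change was 1.27 ± 0.0801 (SE, n = 3 per group, adjusted p = 2.8e-10). Ipsilaterally it reached 382, 363 and 358 FPKM against 291, 276 and 285 FPKM contralaterally, a log2 fold change of 0.37 (adjusted p = 0.0014). The difference between both changes was 0.90 ± 0.113 (adjusted p = 7e-06), so its rise was larger in bilateral OD by more than the replicate error.

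*Rpl5*, which binds the 5S ribosomal RNA together with *Rpl11* and with it can hold the p53 regulator MDM2, was among the 5 members with the largest rises in each of the 3 comparisons. It was at 406, 369 and 429 FPKM in sham and at 769, 791 and 760 FPKM in bilateral OD, a log2 fold change of 0.95 ± 0.0586 (adjusted p = 2.2e-10). It was at 392, 384 and 401 FPKM contralaterally and 566, 552 and 514 FPKM ipsilaterally, a log2 fold change of 0.47 (adjusted p = 6.7e-06). It was at 348, 321 and 353 FPKM in WT and 534, 484 and 507 FPKM in *Nell2*-/-, a log2 fold change of 0.58 (adjusted p = 4.3e-07). All 9 libraries of the second groups lay above all 9 control libraries. Its partner *Rpl11* rose by less, with log2 fold changes of 0.41, 0.30 and 0.43.

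*Rpl7* and *Rps19* came next in bilateral OD. *Rpl7*, of the large subunit, went from 1084, 1008 and 1181 FPKM in sham to 2034, 2102 and 2039 FPKM (log2 fold change 0.92 ± 0.0596, adjusted p = 4.3e-10). *Rps19*, the gene most often mutated in Diamond-Blackfan anaemia in people, went from 796, 677 and 839 FPKM to 1426, 1441 and 1479.5 FPKM (log2 fold change 0.92 ± 0.0720, adjusted p = 5.6e-09). The fifth, *Rpl30*, was a low row with 26.8, 13.1 and 15.99 FPKM in sham and 25.4, 39.3 and 34.6 FPKM in bilateral OD, and its groups overlapped although its log2 fold change of 0.87 was called (SE 0.306, adjusted p = 0.024).

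In *Nell2*-/- the order was another one. *Rpl32*, of the large subunit, led with 1433, 1237 and 1447 FPKM in WT and 2404, 1968.5 and 2216 FPKM in *Nell2*-/- (log2 fold change 0.68 ± 0.0817, adjusted p = 3.5e-06). *Rps28*, a small subunit protein close to the mRNA exit, followed with 1687, 1504 and 1639 FPKM in WT and 2661, 2196.5 and 2631 FPKM in *Nell2*-/- (0.63 ± 0.0928, adjusted p = 3.4e-05). *Rps15a*, a low row for a ribosomal protein, went from 51.1, 44.7 and 52.6 FPKM to 79.5, 66.9 and 73.3 FPKM (log2 fold change 0.56). In each of these genes the groups did not overlap, and *Nell2*-/- replicate 2 was the lowest of its group, as it was in the summed level.

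Ipsilaterally *Rpl14*, of the large subunit, rose most, from 692, 666 and 581 FPKM contralaterally to 932, 933 and 899.9 FPKM (log2 fold change 0.52 ± 0.0742, adjusted p = 3.3e-05). *Rps3a1* and *Rpl22* had log2 fold changes of 0.43 and 0.42. Both rose in bilateral OD and in *Nell2*-/- as well, with log2 fold changes of 0.68 and 0.69 and of 0.46 and 0.48.

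The test of the difference between the bilateral and the unilateral OD change called 29 members in which the bilateral change was higher, where 18.1% of all genes were, and 4 in which it was lower, where 19.3% were. The median difference over the members was 0.20. The 4 were *Rpl41*, *Rps26*, *Rpl27* and *Rps27l*, and they include the 2 most abundant members. *Rpl41*, which encodes the smallest protein of the ribosome, was at 3956, 3582 and 4486 FPKM in sham and 3848, 3672 and 3534 FPKM in bilateral OD (log2 fold change -0.12, adjusted p = 0.21). Ipsilaterally it was at 4471, 4470.4 and 4514 FPKM against 3855, 3706 and 3758 FPKM contralaterally (0.25, adjusted p = 0.02). *Rps26*, which lies at the mRNA exit of the small subunit, was at 2952, 2560 and 3244.5 FPKM in sham and 3087, 2493 and 2497 FPKM in bilateral OD (-0.12, adjusted p = 0.31), and it rose ipsilaterally (0.27, adjusted p = 0.04). The difference between its changes was -0.38 ± 0.137 (adjusted p = 0.035). *Rpl27* fell in bilateral OD, though it was higher by 0.39 with the libraries scaled to the same summed FPKM, from 634, 577 and 664 FPKM to 563, 557 and 529 FPKM (-0.18 ± 0.0661, adjusted p = 0.023), and rose in *Nell2*-/- (0.35, adjusted p = 3.8e-04). The next members by abundance were *Rps29*, *Rpl10* and *Rpl38*. *Rps29* and *Rpl38* rose in bilateral OD (0.53 and 0.27) by more than ipsilaterally (0.12 and -0.12, neither called). *Rpl10* had 0.07 in bilateral OD (adjusted p = 0.36) and rose ipsilaterally (0.24, adjusted p = 0.0098), without a call for the difference (-0.17, adjusted p = 0.19). *Rps29* was at 2789, 2222 and 2978 FPKM in sham and 4013, 3608 and 3853 FPKM in bilateral OD. Leaving out single libraries left 2 to 4 members in the lower direction and 20 to 38 in the higher, with 2 lower members without sham replicate 1 or 3, bilateral OD replicate 2 or 3, or contralateral replicate 1 or 3.

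The test of the difference between the unilateral OD change and the *Nell2*-/- change called a single member. *Rps24*, of the small subunit, was at 850, 833 and 826 FPKM contralaterally and 899, 834.5 and 802 FPKM ipsilaterally, overlapping ranges (log2 fold change 0.01, adjusted p = 0.89). It was at 745, 686 and 762 FPKM in WT and 947, 867 and 897 FPKM in *Nell2*-/- (0.31, adjusted p = 3.6e-04), and the difference between the changes was -0.29 ± 0.0808 (adjusted p = 0.048), where 2.27% of all genes were called in this direction. No member was called in the other direction, where 2.38% of all genes were. At an unadjusted p under 0.05 limma gave 14 members in the first direction, where 8.91% of all genes were, and 0 in the second, where 8.58% were. The count was 0 without any of the contralateral or WT libraries, without ipsilateral replicate 2 or without *Nell2*-/- replicate 1 or 3, and 2 without *Nell2*-/- replicate 2.

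**Figure D3:**
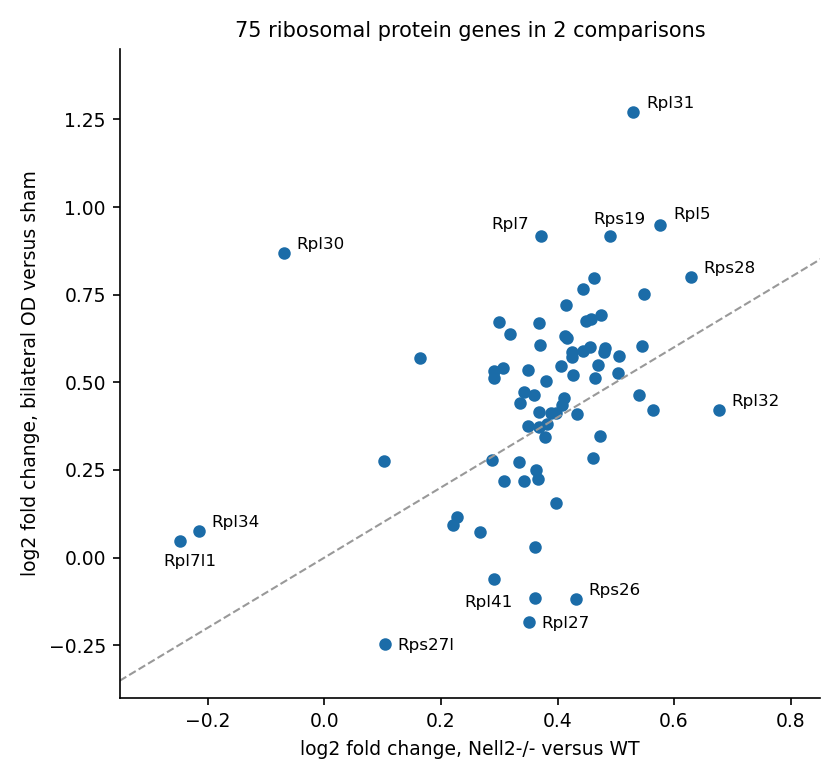
log2 fold change of the 75 genes other than *Rpl3l* in bilateral OD against sham (vertical axis) and in *Nell2*-/- against WT (horizontal axis), 1 point per gene, with the line of equal change dashed. Most points lie above the line, *Rpl31* the highest at 1.27 and 0.53, while *Rps26*, *Rpl41* and *Rpl27* lie below it with rises in *Nell2*-/- and values of -0.12, -0.12 and -0.18 in bilateral OD.

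Over the 75 genes the changes in bilateral OD and in *Nell2*-/- had a Spearman correlation of 0.501, and those in ipsilateral tissue and *Nell2*-/- of 0.695. The genes of a library share its depth, scaling and RNA, so these correlations are given as descriptions.

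In the members, contralateral tissue differed little from sham. No member was called higher, where 6.65% of all genes were, and 2 were called lower, where 5.99% were. At an unadjusted p under 0.05 limma gave 0 members higher, where 12.7% of all genes were, and 11 lower, where 14.3% were. *Rps27l*, a paralogue of *Rps27* that p53 can induce, was at 214, 174 and 209 FPKM in sham and 160, 165 and 155 FPKM contralaterally (log2 fold change -0.31 ± 0.0904, adjusted p = 0.033). In bilateral OD it was at 156, 172 and 173.8 FPKM against the same sham libraries (-0.25, adjusted p = 0.026), just below the lowest of them, and higher by 0.33 with the libraries scaled to the same summed FPKM. *Rpl10*, a protein that joins the large subunit late in its assembly, was at 2741, 2494 and 2811 FPKM in sham and 2299.9, 2269 and 2259 FPKM contralaterally (-0.24 ± 0.0677, adjusted p = 0.031). The lower count was 16 without sham replicate 2, which had the lowest summed level of its group, and 0 without sham replicate 1 or 3 or without any of the contralateral libraries. It was 0 as well with the libraries scaled to the same summed FPKM or corrected for transcript length. In bilateral OD, without sham replicate 1 or 3, *Rpl3l* was the only member called lower.

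*Rpl3l* stood apart from every other member. It reached the mean of 10 FPKM only through the 3 groups in which it is high, so that a member of this kind had to differ between groups, and its place among the members called lower says nothing about the set. It encodes a paralogue of *Rpl3*, the large subunit protein nearest to the site of peptide bond formation, and is known from heart and skeletal muscle, where it takes the place of *Rpl3* in a part of the ribosomes. The gene (NCBI Gene 66211) lies on chromosome 17 from 24727826 to 24736143 (GRCm38.p6), and no stretch of its transcripts as long as a read occurs in a transcript of another gene. It was at 51.1, 56.8 and 39.5 FPKM in sham and 0.180, 0.277 and 0.155 FPKM in bilateral OD. It was at 31.9, 36.0 and 35.8 FPKM contralaterally and 0.197, 0.132 and 0.631 FPKM ipsilaterally. It was at 52.5, 54.2 and 50.6 FPKM in WT and 0.622, 1.07 and 0.620 FPKM in *Nell2*-/-. Every library without its testis or without NELL2 was at 1.07 FPKM or less and every control library at 31.9 FPKM or more.

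The ratio of the means was 0.00415 in bilateral OD, 0.00926 ipsilaterally and 0.0147 in *Nell2*-/-. The log2 fold changes were -7.34, -6.55 and -5.95 with a standard error of 0.316 each (adjusted p = 1e-11, 1.7e-10 and 4.1e-10), and they depend on the 0.1 FPKM that was added, running over the alternatives from -7.87 to -5.37, from -7.04 to -4.77 and from -6.19 to -4.92. Neither difference between the changes was called (-0.79, adjusted p = 0.19, and -0.60, adjusted p = 0.55). Contralateral tissue had a lower mean than sham, 34.6 ± 2.34 against 49.1 ± 8.82 FPKM, without a call (-0.49, adjusted p = 0.35), although the ranges did not overlap. *Rpl3l* made up 5.05% ± 1.09 of the summed *Rpl3* and *Rpl3l* level in sham, 3.72% ± 0.350 contralaterally and 5.90% ± 0.388 in WT, and 0.0154% to 0.0712% on average in the other 3 groups. *Rpl3* itself rose in all 3 comparisons, with log2 fold changes of 0.50, 0.38 and 0.38.

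Skeletal muscle genes were looked at because of the tissues in which *Rpl3l* is known. The 10 genes, 8 of which were expressed enough to be tested, summed to 8.21 to 10.4 FPKM in sham and 3.49 to 5.99 FPKM in bilateral OD, to 10.1 to 11.5 FPKM contralaterally and 12.0 to 16.99 FPKM ipsilaterally, and to 10.5 FPKM in WT and 12.1 to 12.6 FPKM in *Nell2*-/-. Their sum was below the sham range in bilateral OD and above the control range ipsilaterally and in *Nell2*-/-. Of the 8 tested, 3 were called lower in bilateral OD, where 31.4% of all genes were. Ipsilaterally 1 was called higher and in *Nell2*-/- 2, where 16% and 17.8% of all genes were. The 5 genes of sperm and late germ cells summed to 66.9 to 79.6 FPKM in sham and at most 0.263 FPKM in bilateral OD. They summed to 56.9 to 81.7 FPKM contralaterally and 2.32 to 4.43 FPKM ipsilaterally, and to 146 to 235 FPKM in WT and 213 to 250.3 FPKM in *Nell2*-/-. The principal cell genes other than *Gpx5* moved with *Rpl3l* in all 3 comparisons, each of the 6 being called lower. The part of muscle, germ cells or principal cells in the level of *Rpl3l* was not tested.

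The genes that flank *Rpl3l* were read beside it. *Msrb1*, which encodes a selenoprotein that repairs oxidised methionine and lies 450 bases beyond the end of *Rpl3l*, was at 58.5, 54.9 and 56.8 FPKM in sham and 31.01, 28.1 and 28.4 FPKM in bilateral OD, and its log2 fold changes were -0.96, -1.30 ipsilaterally and -1.28 in *Nell2*-/-, all called. *Hs3st6*, a heparan sulfate sulfotransferase 16845 bases beyond the end, had means of 19.5 FPKM in sham and 1.34 FPKM in bilateral OD, 13.8 and 1.05 FPKM contralaterally and ipsilaterally, and 31.1 and 0.861 FPKM in WT and *Nell2*-/-. On the other side *Ndufb10*, 3403 bases before *Rpl3l*, had log2 fold changes of -0.36 in bilateral OD (adjusted p = 8.5e-04), -0.09 ipsilaterally and -0.02 in *Nell2*-/-. The direction of its change in bilateral OD can depend on how the libraries are scaled. *Rps2*, a member that lies 5899 bases before *Rpl3l*, changed by 0.03, 0.11 and 0.36, with a call in *Nell2*-/- alone. The neighbours were chosen after the values of *Rpl3l* had been seen.

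**Figure D4:**
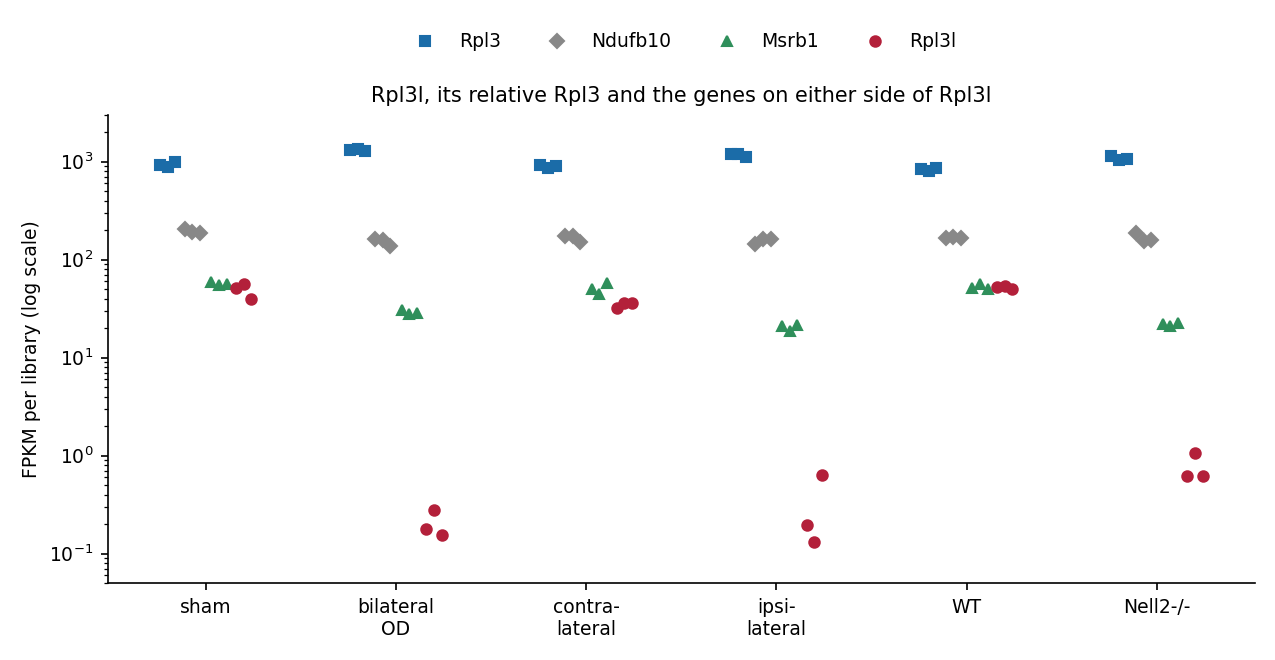
FPKM per library on a log scale for *Rpl3l*, its paralogue *Rpl3*, and *Ndufb10* and *Msrb1*, which lie on either side of *Rpl3l*, by group with 3 libraries each. *Rpl3l* lies between 31.9 and 56.8 FPKM in sham, contralateral and WT and between 0.132 and 1.07 FPKM in the other 3 groups, while *Rpl3* is at 806 FPKM or more in every library.

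In the other paralogue pairs the changes were smaller. *Rpl22l1*, the paralogue of *Rpl22*, was at 117 to 157 FPKM in sham and 183 to 217 FPKM in bilateral OD (log2 fold change 0.57, adjusted p = 1.6e-04), without a call ipsilaterally or in *Nell2*-/- (0.22 and 0.16, adjusted p = 0.12 and 0.25). Its ratio to *Rpl22* was 0.791 ± 0.0600 in WT and 0.637 ± 0.0313 in *Nell2*-/-. *Rpl7l1*, a relative of *Rpl7* that acts in the making of ribosomes, was the only member besides *Rpl3l* that fell in *Nell2*-/-, from 21.8, 23.6 and 21.8 FPKM to 18.99, 19.2 and 18.4 FPKM (-0.25 ± 0.0594, adjusted p = 0.003). *Rps4l*, a copy of the X-linked *Rps4x*, was called in none of the comparisons, with log2 fold changes of 0.41, 0.27 and 0.39 (adjusted p = 0.053, 0.26 and 0.099), while *Rps4x* rose by 0.60, 0.30 and 0.46. *Rpl10l* and *Rpl39l*, which are known from the testis, were at most at 0.569 and 0.971 FPKM in any library.

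Grouped by role, the rise was spread over the ribosome. Of the 8 genes whose proteins line or surround the exit tunnel, 7 rose in bilateral OD, 5 ipsilaterally and 7 in *Nell2*-/-. The eighth was *Rpl26*, which is below the limit for membership, had 0 FPKM in 2 bilateral OD libraries and 3.65 FPKM in the other against 5.02 to 23.4 FPKM in sham, and was called lower there (adjusted p = 0.035). Of 5 proteins of the decoding centre and mRNA channel (*Rps2*, *Rps3*, *Rps15*, *Rps23*, *Rps9*), 4, 4 and 5 rose, *Rps2* being the exception in both OD comparisons. *Rps6*, the substrate of the S6 kinase downstream of mTOR, rose by 0.61, 0.36 and 0.37 on the log2 scale. *Rpl12*, of the stalk base of the large subunit, rose by 0.46, 0.26 and 0.54. *Rps27a*, which is made as a fusion with ubiquitin, rose by 0.51, 0.26 and 0.46. Of the 10 genes mutated in Diamond-Blackfan anaemia in people, 8, 7 and 9 rose, and *Rpl26* is also among these 10. Of all members 82.9%, 75% and 89.5% rose, and of all genes 30.4%, 16% and 17.8%. The counts by role follow the whole set and are no result about a role.

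Ribosomal proteins that the symbol pattern leaves out gave a partly different picture. Of 8 such genes 6 rose and 2 fell in bilateral OD, 5 rose ipsilaterally and 6 in *Nell2*-/-, with medians of 0.33, 0.22 and 0.39. Of all genes 30.4% were higher and 31.4% lower in bilateral OD, and 16% and 17.8% were higher ipsilaterally and in *Nell2*-/-. The 2 that fell were *Rpl36al*, a copy of *Rpl36a*, and *Rplp0*, which forms the stalk of the large subunit with *Rplp1* and *Rplp2*. *Rplp0* was at 1483, 1361 and 1521 FPKM in sham and 1150.0, 1122 and 1111 FPKM in bilateral OD (-0.37, adjusted p = 4.9e-05), whereas *Rplp1* and *Rplp2* rose (0.35 and 0.40). With the libraries scaled to the same summed FPKM, all 8 were called higher in bilateral OD (median 0.90), where the median over all genes was 0.55. The direction of the falls of *Rplp0* and *Rpl36al* therefore depends on the scale. *Rpsa*, a small subunit protein also known as the laminin receptor, rose in all 3 comparisons (0.37, 0.38 and 0.60).

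The other mRNAs known for a TOP sequence, 17 translation factors and associated genes, had 9, 12 and 14 called higher and 1, 0 and 0 lower. Of all genes 30.4%, 16% and 17.8% were higher and 31.4%, 18.6% and 18.6% lower. At an unadjusted p under 0.05 limma gave 0 of the 17 lower ipsilaterally and in *Nell2*-/- as well. Their medians were 0.19, 0.21 and 0.35. *Eef1a1*, the abundant elongation factor that brings aminoacyl-tRNA to the ribosome, was not called (0.13, 0.14 and 0.12, adjusted p = 0.056, 0.068 and 0.11), *Tpt1* rose in all 3 (0.19, 0.21 and 0.39), and *Eef2*, the factor that moves the ribosome along, rose ipsilaterally and in *Nell2*-/- (0.20 and 0.32) but had -0.10 in bilateral OD (adjusted p = 0.18).

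Genes that make ribosomes were called about as often as all genes in bilateral OD and *Nell2*-/-. Of 27 genes for rRNA synthesis, modification and assembly, 9 were higher and 9 lower in bilateral OD, 3 and 3 ipsilaterally, and 6 and 5 in *Nell2*-/-. The medians were -0.10, -0.01 and 0.11. Of all genes 30.4% were higher and 31.4% lower in bilateral OD, 16% and 18.6% ipsilaterally, and 17.8% and 18.6% in *Nell2*-/-. With the libraries scaled to the same summed FPKM, 1 of the 27 was lower and 22 were higher in bilateral OD. Their median was then 0.47, against 0.55 over all genes. *Ncl*, the nucleolar protein nucleolin, fell in all 3 (-0.12, -0.34 and -0.21), and *Nop10*, a part of the particle that makes pseudouridine, fell in bilateral OD (-0.44). *Fbl*, the rRNA methyltransferase fibrillarin, rose ipsilaterally (0.30). Of 17 regulators, 5 were higher and 9 lower in bilateral OD, 2 and 4 ipsilaterally, and 5 and 2 in *Nell2*-/-. These counts stand beside the same shares of all genes, and no result about the regulators as a list is read from them. The most abundant of them, *Rheb*, the GTPase that activates mTOR, fell in both OD comparisons (-0.22 and -0.21) and contralaterally against sham (-0.16), *Max*, the partner of MYC, rose in bilateral OD and *Nell2*-/- (0.30 and 0.15), and *Akt1s1*, which restrains mTOR, was not called. Of the genes named in the background, looked up after their values had been seen, *Larp1* fell in all 3 comparisons (-0.61, -0.19 and -0.18) and *Mtor* in bilateral OD (-0.40). *Myc*, a transcription factor known to raise ribosome production, rose in all 3 (1.12, 0.76 and 0.80) with means of 1.14 FPKM in sham and 2.53 FPKM in bilateral OD. With the libraries scaled to the same summed FPKM, the median over all genes moved from 0.02 to 0.55 in bilateral OD. The direction of the falls of single genes given here for bilateral OD can therefore depend on the scale.

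Proteins of the mitochondrial ribosome, encoded by a separate set of nuclear genes, were mostly lower in bilateral OD, where 44 of 71 were lower and 6 higher with a median of -0.24. Of all genes tested, 31.4% were lower and 30.4% higher there. The list was cut at a mean of at least 10 FPKM. Of the 6679 genes tested at that mean, 3355 were lower and 1659 higher in bilateral OD, with a median of -0.19. Other genes of 500 to 1000 bases at that mean had a median of -0.31, so a fall was not particular to this list. Ipsilaterally 11 of the 71 were lower and 2 higher, and in *Nell2*-/- 10 were lower and 9 higher. Contralaterally 11 were lower than in sham and none higher, where limma gave 0 at an unadjusted p under 0.05 too. In these comparisons 18.6%, 18.6% and 5.99% of all genes were lower, and 16%, 17.8% and 6.65% higher. *Mrpl37* was at means of 563 FPKM in sham and 24.4 FPKM in bilateral OD, 404 and 21.3 FPKM contralaterally and ipsilaterally, and 398 and 21.7 FPKM in WT and *Nell2*-/-. It was the extreme of the list, with log2 fold changes of -4.52, -4.24 and -4.19 against list medians of -0.24, -0.07 and 0.03. Of 75 subunits of oxidative phosphorylation, cut at the same mean, 61 were lower and 6 higher in bilateral OD with a median of -0.38, 11 and 6 ipsilaterally, and 5 and 9 in *Nell2*-/-. Contralaterally 24 of the 75 were lower than in sham and 0 higher, with a median of -0.18. With each library corrected for transcript length, 2 of the 75 and 4 of the 71 mitochondrial ribosomal genes were lower contralaterally. With the libraries scaled to the same summed FPKM, the mitochondrial ribosomal genes had 8 lower and 45 higher in bilateral OD (median 0.33). The oxidative phosphorylation genes then had 7 lower and 43 higher (median 0.19). Both medians lay below the 0.55 of all genes on that scale, so the direction of these falls depends on the scale.

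Ribosomal protein transcripts are short, and the FPKM of short transcripts is sensitive to how the effective length was set and to RNA quality. The annotated length of the 76 members had a median of 795 bases, from 371 to 5179, and 53 were at most 1000 bases long, while the median of 16836 genes tested with a length was 2648.5 bases. Other genes of 500 to 1000 bases with a mean of at least 10 FPKM, 567 in all, had medians of -0.31 in bilateral OD, -0.01 ipsilaterally, 0.07 in *Nell2*-/- and -0.17 in contralateral against sham. Those of at most 500 bases, 82 in all, had medians of -0.46, 0.12, 0.36 and -0.17. The members' medians lay above other short transcripts in bilateral OD and ipsilaterally and above those of 500 to 1000 bases in *Nell2*-/-, where the shortest genes were close to the members' 0.39. After each library had been corrected for transcript length, the medians were 0.61, 0.23 and 0.30, with 67, 57 and 67 members higher and 1, 3 and 3 lower, and the contralateral median of -0.08 became 0.05. The medians over all genes were then 0.03, 0.02 and 0.02 in the first 3 comparisons.

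**Figure D5:**
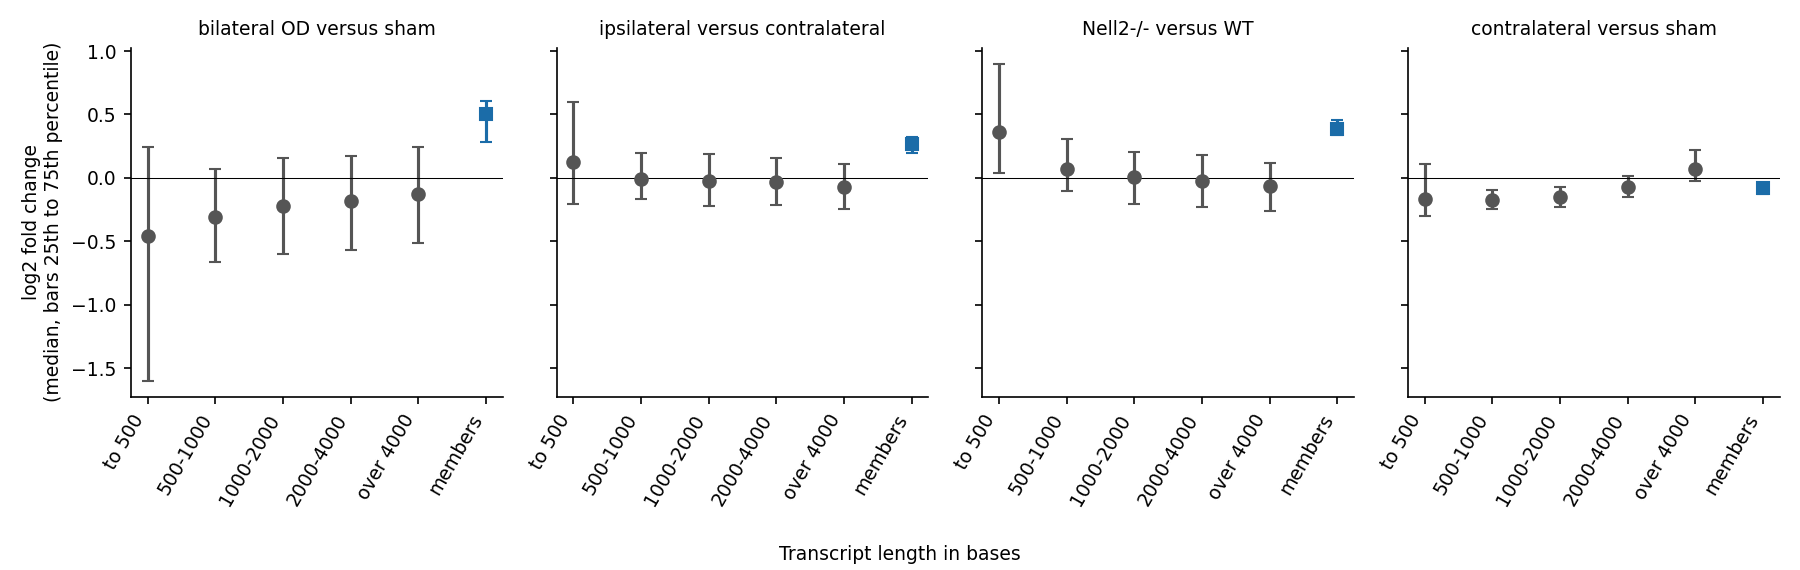
Median log2 fold change (points) with the 25th to 75th percentile (bars) of genes at a mean of at least 10 FPKM, by transcript length in bases and with members left out, beside the 75 members other than *Rpl3l* (squares), in 4 comparisons. The members lie above every length class in the first 3 panels, nearest to the genes of at most 500 bases at 0.36 in *Nell2*-/-, and in contralateral against sham the medians climb from -0.17 in the shortest to 0.07 in the longest genes.

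Many ribosomal protein genes have processed copies elsewhere in the genome, so that a read can fit more than 1 place, and how such reads were shared out is not given in the sources used here. Of the members 69 shared at least 1 stretch as long as a read with a transcript of another gene. The row of *Rps27* held 3.15 to 14.96 FPKM in all libraries, while that of its copy *Rps27rt*, which shares 98.4% of these stretches, held 2449 to 5801 FPKM. Likewise the row of *Rpl34* held 26.5 to 46.4 FPKM and that of *Rpl34-ps1* 855 to 1687 FPKM, and only the latter rose (0.42, 0.30 and 0.48). Levels of such rows are uncertain, *Rpl26* and *Rpl30* among them. The 7 members with no shared stretch, *Rpl22*, *Rpl32* and *Rpl3l* among them, counted apart after the values had been seen, gave 5 higher in each of the 3 comparisons and 2, 1 and 1 lower. Of the 27 members with over 50% shared, 22, 21 and 27 were higher and 1, 0 and 0 lower, again 0 in the last 2 at an unadjusted p under 0.05 by limma. Of all members 82.9%, 75% and 89.5% were higher, and of all genes 30.4%, 16% and 17.8%. Both counts follow the whole set, and the effect of reads that fit more than 1 place was not tested.

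The scaling of the libraries set the size of the bilateral OD change. With each library scaled to the same summed FPKM, the median over all genes moved from 0.02 to 0.55 in bilateral OD, from 0.02 to 0.11 ipsilaterally, from 0.02 to 0.09 in *Nell2*-/- and from -0.03 to 0.12 in contralateral against sham. The members' medians became 1.06, 0.36, 0.45 and 0.08, above the median of all genes in the first 3 and below it in the last, and 75, 67, 70 and 7 were higher. The shares of all genes given earlier belong to the deposited values and do not apply to these counts. On this scale *Rps27l*, *Rpl27*, *Rpl41* and *Rps26* were higher in bilateral OD, by 0.33, 0.39, 0.46 and 0.46, so their direction depends on the scale, while *Rpl3l* stayed lower.

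Some genes of other cell types moved with these comparisons. Of all genes 30.4% were higher and 31.4% lower in bilateral OD, 16% and 18.6% ipsilaterally, and 17.8% and 18.6% in *Nell2*-/-. With so few genes per list, no result about a cell type is read from the counts. All 4 adipocyte genes were higher in bilateral OD, where they summed to 12.0 to 99.2 FPKM against 1.3995 to 9.07 FPKM in sham, 1 of 4 was higher ipsilaterally and none was called in *Nell2*-/-, where limma gave 0 at an unadjusted p under 0.05 too. Of the 4 clear and narrow cell genes 3 were higher in each comparison, with sums of 56.8 to 60.9 FPKM in sham and 197 to 253 FPKM in bilateral OD, 58.6 to 62.3 and 102 to 119 FPKM contralaterally and ipsilaterally, and 57.7 to 58.6 and 109 to 119 FPKM in WT and *Nell2*-/-. The fibroblast genes summed to 266 to 340 FPKM in sham and 216 to 832 FPKM in bilateral OD, 2 of 5 being higher and 3 lower. Of the 6 smooth muscle genes 3 were lower in bilateral OD, 1 ipsilaterally and 1 in *Nell2*-/-, and without *Actg2*, which went from 1537 to 1837 FPKM in sham to 11.1 to 16.3 FPKM in bilateral OD, the other 5 summed to 252.6 to 351.9 FPKM and 228.9 to 304.3 FPKM. Of 4 endothelial genes, 2 were higher and 1 lower in bilateral OD, and all 4 were lower in *Nell2*-/-. Of 5 macrophage genes, 3 were higher and 0 lower in bilateral OD, and 0 higher and 2 lower in *Nell2*-/-. Of 4 lymphocyte genes tested, 3 were higher and 0 lower in bilateral OD, at sums of at most 5.27 FPKM. The part of these cell types in the rise of the ribosomal protein genes was not tested.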

How the data were processed

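The deposited table gives normalised FPKM for 24346 genes, which the authors obtained from 101 bp single-end reads of stranded mRNA libraries by mapping to mm10 with TopHat2 2.1.1 and quantifying with Cufflinks 2.2.1. FPKM divides by transcript length and by library size. Over genes above 0 in all 18 libraries, the median level of a library relative to each gene's mean was 1.004 to 1.013. The summed FPKM ran from 528664 to 825866, so the deposited values were close to a scale of equal medians, not of equal sums. Values were not reads, and a count test was not used. log2(FPKM + 0.1) of the 17302 genes with at least 0.1 FPKM in at least 3 libraries was fitted with limma 3.58.1 (R 4.3.3) as 6 group means over 18 libraries with 12 residual degrees of freedom, with the variance trend and robust moderation, and p-values were adjusted by Benjamini-Hochberg over all of them, with a threshold of 0.05. The 4 contrasts between groups and both differences between contrasts were taken from this fit.

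The members and gene lists were chosen with earlier results of these data known. Genes were named by fixed rules: the 5 called members with the largest rises and falls in each comparison, the 5 most abundant, paralogue pairs, role groups, members at the limit and the 3 most abundant genes of each related list. Not all genes that the rules name are described, and 1 of them is not reported here. *Msrb1*, *Hs3st6*, *Larp1*, *Mtor*, *Myc*, *Rplp0*, *Rpl36al* and *Rpsa*, the muscle list and the stretches shared with other genes were chosen after seeing values. Transcript lengths and starts came from GENCODE M21 transcripts paired with a RefSeq accession, gene positions from RefSeq GRCm38.p6. Replicate libraries had correlations of 0.989 to 0.993 on the log2 scale, and no pair was identical. The labels do not say that replicates are separate animals beyond their numbers, so p-values measure the spread between these samples. Other scalings, filters, added constants, a replicate block, a length correction and single libraries left out were tried.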

Additional observations from a re-analysis of the deposited data

Results flagged for a closer look

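The change in bilateral OD differed from that in unilateral OD by a test of the difference itself in 22 of the named members given here (limma, adjusted p under 0.05). On the log2 scale the bilateral change was higher by 0.90 in *Rpl31*, 0.63 in *Rpl7*, 0.54 in *Rps19*, 0.53 in *Rps24*, 0.52 in *Rps28*, 0.48 in *Rpl5*, 0.42 in *Rpl35a*, 0.41 in *Rps29* and 0.40 in *Rpl38*. It was higher by 0.34 in *Rpl23a*, 0.33 in *Rpl36a*, 0.30 in *Rps4x*, 0.29 in *Rps10*, 0.27 in *Rpl22*, 0.25 in *Rps27a*, 0.25 in *Rps9*, 0.25 in *Rps3a1* and 0.24 in *Rps6*. The difference was -0.38 in *Rps26*, -0.37 in *Rpl41*, -0.34 in *Rpl27* and -0.33 in *Rps27l*. The unilateral OD change differed from the *Nell2*-/- change in *Rps24*, by -0.29.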

How the results depend on the processing

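Of 4794 values of named members under an alternative, 4527 kept their direction and side of the threshold, 157 lost and 93 gained a call, and 17 reversed. With each library scaled to the same summed FPKM, the counts of members lower became 1 in bilateral OD, 0 contralaterally, 0 for the bilateral minus unilateral difference and 2 for the unilateral minus *Nell2*-/- difference, and those higher 7 contralaterally and 71 for the bilateral minus unilateral difference. Reversed there were *Rps27l* (0.33), *Rpl27* (0.39), *Rpl41* (0.46) and *Rps26* (0.46) in bilateral OD, *Rpl5* (0.13), *Rpl4* (0.13), *Rps24* (0.12) and *Rpl3* (0.11) contralaterally, and *Rps27l* (0.15), *Rpl27* (0.14), *Rpl10* (0.31), *Rpl41* (0.12), *Rps26* (0.099), *Rpl19* (0.39), *Rpl35* (0.48) and *Rps2* (0.40) in the bilateral minus unilateral difference. All are values on a scale whose median over all genes is higher. With transcript length corrected, members lower became 1 in bilateral OD, 3 ipsilaterally, 0 contralaterally and 0 for the bilateral minus unilateral difference, members higher 1 contralaterally and 57 for that difference, and *Rpl38* had -0.095 in *Nell2*-/-, and the cause was not tested. With members at a mean of at least 50 FPKM, 0 were lower ipsilaterally and 0 in *Nell2*-/-, since *Rpl3l* and *Rpl7l1* then drop out. Leaving out single libraries gave 59 to 63 higher and 1 to 4 lower in bilateral OD, 45 to 51 and 1 to 2 ipsilaterally, 0 to 0 and 0 to 16 contralaterally, 64 to 68 and 2 to 2 in *Nell2*-/-, 20 to 38 and 2 to 4 for the bilateral minus unilateral difference, and 0 to 0 and 0 to 2 for the unilateral minus *Nell2*-/- difference.

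The deviations of same-numbered libraries had correlations of -0.098 to 0.117, and of 0.0243 to 0.117 in *Nell2*-/- against WT, where all 3 were positive but not all above 0.1, so the numbers were not used to pair them. With the replicate number as a block, the unilateral minus *Nell2*-/- difference had 0 members lower, and the other counts stayed within 1.5 times. Reads per library are not known, so low rows such as *Rpl3l* after OD carry a counting error that could not be given.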

Other observations

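Rows of 2 processed copies of ribosomal protein genes differed between the cohorts rather than between treatments. *Rps15a-ps6* was at 8.95 to 20.2 FPKM in the 12 libraries of the OD cohort and 0.291 to 2.36 FPKM in the 6 libraries of the *Nell2* cohort, and *Rpl14-ps1* was at 0.855 to 2.64 FPKM and at most 0.132 FPKM. The cohorts differ in age and in surgery, and the strain of the *Nell2* cohort is not given in the sources used here, so that these cannot be told apart. The values were not tested against each other.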
